A study of Rattus norvegicus with 12 samples.

Results

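Galanin and 8 other neuropeptide precursors were followed in rat hippocampal neurons recovering from OGD, deprivation of oxygen and glucose, which models cerebral ischemia in a dish. The 9 genes were Gal, Npy, Sst, Cck, Tac1, Penk, Pdyn, Vip and Crh, out of 15148 genes named on the array. They were chosen by name, from non-control probes whose accession belongs to each gene, and a gene with several probes was read from the probe with the highest mean signal. All 9 genes had a probe, and together they had 13. Primary neurons came from the hippocampi of Wistar rat embryos at E18 and were kept in culture for 14 to 15 days. OGD cultures spent 2 h in an anaerobic chamber, in a saline buffer in which sucrose took the place of glucose. Control cultures (Ctrl) spent the same time in the glucose-containing buffer in a regular incubator. Both then recovered in conditioned medium for 7 h or 24 h, which gave 4 groups (Ctrl 7 h, OGD 7 h, Ctrl 24 h and OGD 24 h) of 3 one-color arrays each, and all groups were of the same strain and untreated otherwise. Gal and Tac1 are among the genes that the study listed for these same arrays, as are the receptor genes Sstr1 and Sstr3, so their tests here are not independent evidence of their direction.

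Neuropeptides are cut from larger precursors by prohormone convertases, packed into dense-core vesicles and released to act mostly on G protein-coupled receptors. In the hippocampus, Npy, Sst, Cck and Vip are best known from GABAergic interneurons, Pdyn and Penk encode the opioid peptides dynorphin and enkephalin, Tac1 encodes substance P and neurokinin A, and Crh encodes the stress peptide corticotropin-releasing hormone. Galanin is an inhibitory peptide that reaches the hippocampus largely in fibres from other brain regions, and it is known as a peptide whose expression rises in injured neurons.

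Each value below is a level, the log2 signal of a probe relative to the median probe of its array, or a difference between OGD and control on that log2 scale. A gene was called higher or lower when the limma p, not adjusted for multiple testing, was under 0.05 and the fold was at least 2, the thresholds of the study's methods. No probe of the array passed an adjusted p of 0.05 in limma, while 3590 probes at 7 h and 4160 at 24 h had an unadjusted p under 0.05. The methods' t-test left 1 probe past the adjusted threshold at 7 h and none at 24 h. The median spot intensity ran from 131 to 660 over the arrays, and 78.4% to 87.1% of the spots lay well above background. Replicate 1 of OGD 24 h stood apart, with the lowest median intensity and the lowest mean correlation with its group (0.963, against 0.973 or more on the other arrays), so values without it are given where it decides a result. A control array and its OGD counterpart of equal recovery and replicate number shared each of the 6 slides, and the difference within each slide is given for the main results. On the slides of replicates 1 and 2 at 7 h and replicate 1 at 24 h, the 2 arrays were scanned apart.

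Gal rose after OGD at both recovery times. At 7 h its level was 3.01, 2.75 and 4.48 on the control arrays (replicates 1 to 3) and 6.24, 6.63 and 6.68 on the OGD arrays. The 24 h control arrays read 0.61, 1.58 and 1.50, and the 24 h OGD arrays 4.94, 2.61 and 3.54. Every OGD array lay above every control array of its time, and all 12 arrays read the probe well above background. The difference was 3.10 ± 0.59 (SE, n = 3 per group) at 7 h, a fold of 8.58 with a limma p of 0.000287 (adjusted p of 0.175 over all probes). It was 2.47 ± 0.59 (SE, n = 3 per group) at 24 h, a fold of 5.53 with a limma p of 0.00157 (adjusted p of 0.252). A second probe for Gal, present as 1 spot where the first has 10, gave differences of 3.21 and 2.48. Within the slides Gal was higher by 3.23, 3.87 and 2.20 at 7 h and by 4.33, 1.03 and 2.04 at 24 h. The 3 slides whose arrays were scanned together are the ones with 2.20, 1.03 and 2.04. Without replicate 1 of OGD 24 h the difference at 24 h was 1.85, with a limma p of 0.00838. Scaling the arrays to a spike-in probe, which put the median of all named genes at -1.05, gave 1.44 for Gal at 24 h and ended that call (limma p of 0.199).

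The level of Gal also read lower in Ctrl 24 h than in Ctrl 7 h, which was not tested. The 7 h and 24 h arrays lay on different slides and were scanned apart. A difference in level between times thus cannot be told apart from one between slides or scans. The group means were 1.23 ± 0.54 in Ctrl 24 h, 3.41 ± 0.93 in Ctrl 7 h, 3.70 ± 1.17 in OGD 24 h and 6.51 ± 0.24 in OGD 7 h (SD, n = 3). Neighbours in that order did not overlap, except Ctrl 7 h and OGD 24 h, which did. The response at 24 h was smaller than that at 7 h by 0.63, with a 95% interval from -2.47 to 1.20 (limma p of 0.461), so the 2 responses were not distinguishable with 3 arrays per group. Of the 15148 named genes, 17 had a larger rise than Gal at 7 h and 50 at 24 h. Among the 10898 genes well above background on all 12 arrays, 3 rose more at 7 h and 16 at 24 h.

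The sequence upstream of the start site was read for the members with an entry in the RefSeq promoter table (build GRCr8), which holds 6 of the 9 genes (Gal, Npy, Sst, Tac1, Pdyn and Vip). Those of Gal, the gene called higher at both times, and of Tac1, called lower, are shown 5′ to 3′ on the strand of the gene, with capitals marking the letters TGACG on either strand, the core of the cyclic AMP response element.
Gal, chr1:210084573-210084822, minus strand: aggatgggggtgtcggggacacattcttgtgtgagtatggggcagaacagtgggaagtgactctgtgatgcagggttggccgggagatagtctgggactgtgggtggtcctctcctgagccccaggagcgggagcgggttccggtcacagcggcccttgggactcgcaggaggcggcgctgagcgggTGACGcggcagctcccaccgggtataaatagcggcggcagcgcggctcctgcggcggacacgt
Tac1, chr4:36645333-36645582, plus strand: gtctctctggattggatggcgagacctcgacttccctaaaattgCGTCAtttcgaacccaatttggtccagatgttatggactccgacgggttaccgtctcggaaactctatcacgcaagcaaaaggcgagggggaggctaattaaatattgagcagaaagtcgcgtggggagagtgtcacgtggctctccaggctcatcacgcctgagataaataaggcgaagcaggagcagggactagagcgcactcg
The core ends 58 bases before the start in Gal and 201 bases before it in Tac1. It also occurred in Vip and was found in 18.2% of the 33469 promoters of the table in the same 250 bases. The full element TGACGTCA was found in none of these 6 windows and in 1.59% of all promoters, and the AP-1 letters TGANTCA in none of the 6 and in 6.34%. Bases outside the windows, those past the annotated start included, were not read. A window without a match thus does not show that the gene, Sst for example, lacks the element. The letters TATAAA occurred in Gal, 35 bases before the start, and in Pdyn and Vip, against 12.9% of all promoters. These matches describe letters in these windows and do not show binding of a factor.

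**Figure D1:**
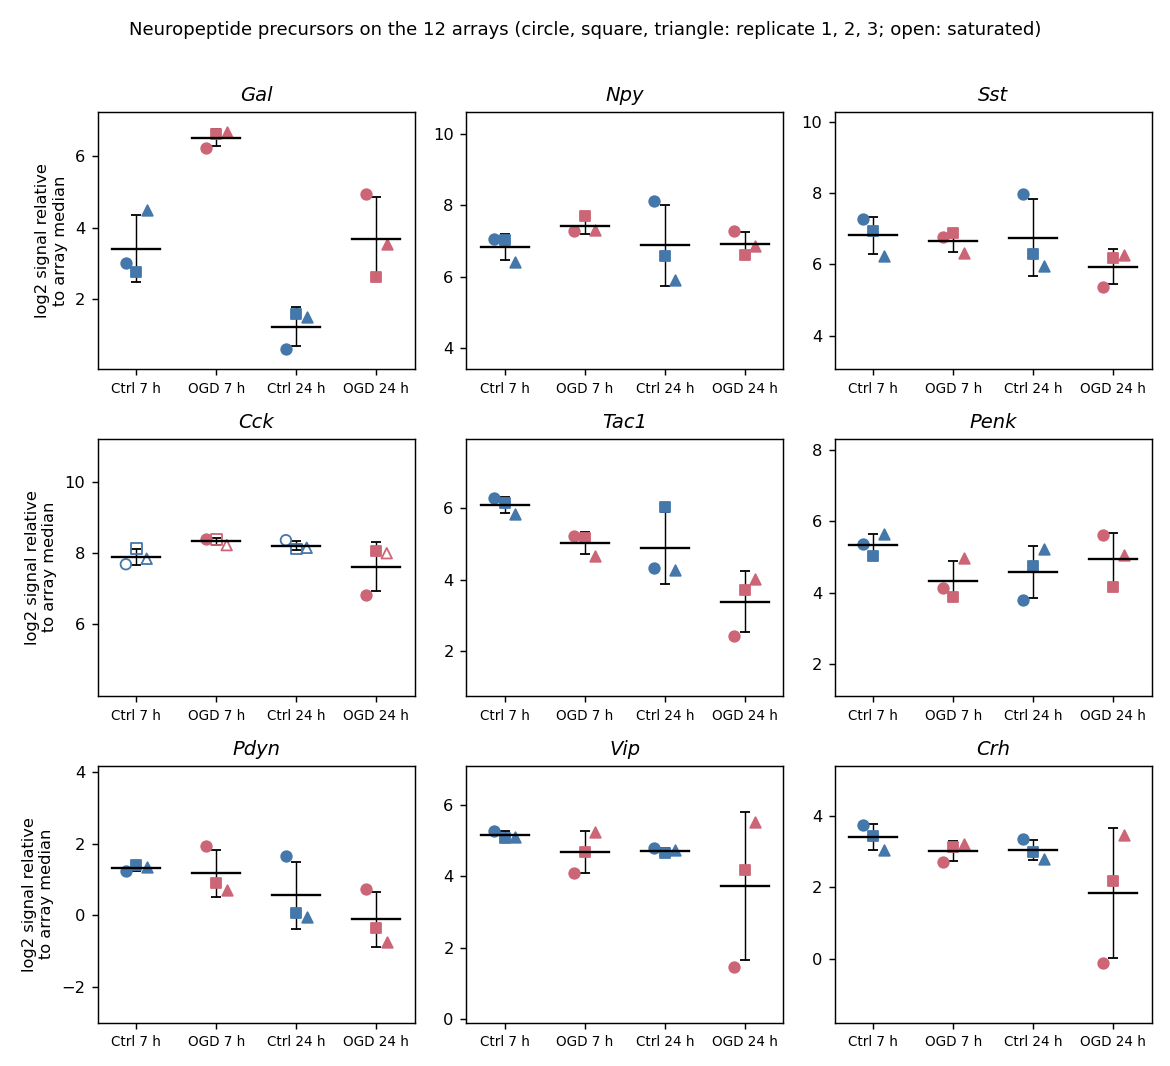
Level of each precursor on the 12 arrays, as log2 signal relative to the array median (vertical axes all span the same number of log2 units), in Ctrl 7 h, OGD 7 h, Ctrl 24 h and OGD 24 h. Points are arrays, with the shape giving the replicate and open symbols saturated readings, lines are group means and bars are SD (n = 3). The OGD arrays of Gal lie above its control arrays at both times, those of Tac1 lie below them, and Cck is saturated on all control arrays.

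Of the 9 precursors, Gal alone was called higher at 7 h and at 24 h. Over all named genes, 1.56% were called higher at 7 h and 2.74% at 24 h. Penk was the 1 member called lower at 7 h and Tac1 the 1 called lower at 24 h, against 2.07% and 2.38% of all named genes. A count of 1 among 9 genes is too small to be read against these shares as a result about peptides in general. The median difference over all named genes was -0.11 at 7 h and -0.03 at 24 h.

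Tac1, the precursor of substance P, had lower levels after OGD at both times. At 7 h it read 6.29, 6.15 and 5.84 on the control arrays and 5.23, 5.18 and 4.67 on the OGD arrays. The 24 h arrays read 4.33, 6.04 and 4.28 in control cultures and 2.42, 3.73 and 4.02 after OGD. The OGD arrays lay below the control arrays of their time without overlap. The difference was -1.07 ± 0.50 (SE, n = 3 per group) at 7 h, which missed the threshold (limma p of 0.059), and -1.50 ± 0.50 at 24 h, 2.82-fold lower and called (limma p of 0.0133, adjusted p of 0.29). Within slides it was lower by 1.06, 0.97 and 1.17 at 7 h, a narrow range, and by 1.91, 2.32 and 0.26 at 24 h. A second Tac1 probe, with another transcript accession, gave -1.26 (limma p of 0.028) and -1.29 (limma p of 0.0256) and was called lower at both times. The 24 h call of the first probe was lost without replicate 2 of Ctrl 24 h (difference of -0.92, limma p of 0.0567) and without replicate 1 of OGD 24 h (-1.01, limma p of 0.059). With the slide as a block the 7 h difference passed the test (limma p of 0.029). The methods' t-test called the 7 h difference and not the 24 h one.

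Penk, the enkephalin precursor, fell at 7 h and did not pass the test at 24 h. At 7 h its level was 5.36, 5.03 and 5.64 in control cultures and 4.13, 3.89 and 4.97 after OGD, with no overlap. The difference of -1.01 ± 0.45 (SE, n = 3 per group) lay just past both thresholds (2.01-fold lower, limma p of 0.0475, adjusted p of 0.418). It was -1.23, -1.14 and -0.67 on the 3 slides. The call was lost with the slide as a block (limma p of 0.062), and the difference without any 1 array ran from -1.33 to -0.79. At 24 h Penk read 3.79, 4.75 and 5.22 in control cultures and 5.61, 4.16 and 5.04 after OGD. These groups overlapped, and the difference of 0.35 had a 95% interval from -0.64 to 1.35. It was -0.38 without both replicate 1 arrays of each time. The 2 times differed by 1.36 for Penk, with an interval from -0.05 to 2.77 (limma p of 0.0567).

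Pdyn, the dynorphin precursor, did not pass the test at either time. It read 1.23, 1.40 and 1.35 in Ctrl 7 h and 1.93, 0.90 and 0.70 in OGD 7 h, so the OGD arrays fell on both sides of the controls. At 24 h it read 1.65, 0.06 and -0.04 in control cultures and 0.74, -0.35 and -0.75 after OGD. It was lower on each of the 3 slides at 24 h, by 0.91, 0.40 and 0.71, while the groups overlapped. The differences of -0.15 and -0.68 had 95% intervals from -1.28 to 0.98 and from -1.81 to 0.46.

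Npy, a peptide of interneurons with antiepileptic actions, was a little higher at 7 h without passing the test. Its level was 7.07, 7.04 and 6.43 in control cultures and 7.28, 7.69 and 7.30 after OGD, with no overlap. The difference was 0.58 ± 0.47 (SE, n = 3 per group, limma p of 0.239), or 1.50-fold, and it was 0.22, 0.66 and 0.88 on the slides. At 24 h the control arrays alone spread from 5.91 to 8.13 and enclosed the OGD arrays, which read 7.29, 6.62 and 6.85. The difference at 24 h was 0.04, with a 95% interval from -0.99 to 1.07, which leaves room for a change of up to about that size either way. A second Npy probe gave 0.54 and 0.06.

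Sst, the somatostatin precursor, did not pass the test at either time. At 7 h it read 7.26, 6.93 and 6.24 in control cultures and 6.77, 6.88 and 6.32 after OGD, and the groups overlapped. At 24 h it read 7.97, 6.29 and 5.97 in control cultures and 5.38, 6.18 and 6.26 after OGD. The difference of -0.81 at 24 h (95% interval from -1.89 to 0.27) came mainly from the slide of replicate 1, where it was -2.60, against -0.11 and 0.29 on the others. At 7 h the difference was -0.16, with a 95% interval from -1.24 to 0.92.

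Vip and Crh did not pass the test at either time, and at 24 h their values rested on single arrays. Vip, the vasoactive intestinal peptide precursor of some interneurons, read 5.27, 5.06 and 5.10 in Ctrl 7 h and 4.10, 4.69 and 5.25 in OGD 7 h. At 24 h it read 4.79, 4.64 and 4.73 in control cultures and 1.47, 4.19 and 5.53 after OGD. The control arrays were close together at both times and the OGD arrays were spread around or below them. Crh read 3.74, 3.43 and 3.04 in Ctrl 7 h and 2.70, 3.13 and 3.22 in OGD 7 h. At 24 h Crh read 3.34, 2.98 and 2.78 in control cultures and -0.13, 2.17 and 3.45 after OGD. Replicate 1 of OGD 24 h was the lowest array for both genes, and replicate 3 of OGD 24 h was the highest of the 24 h arrays. The differences at 24 h were -0.99 for Vip (limma p of 0.228) and -1.21 for Crh (limma p of 0.106). Without replicate 1 of OGD 24 h they became 0.14 and -0.23, and without replicate 3 they became -1.89 (limma p of 0.015) and -2.02 (limma p of 0.00478). At 7 h the differences were -0.46 for Vip and -0.39 for Crh, with 95% intervals from -2.17 to 1.25 and from -1.90 to 1.13.

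Cck, the cholecystokinin precursor, was too bright for the scanner. Its probe was saturated on all 6 control arrays, on replicates 2 and 3 of OGD 7 h and on replicate 3 of OGD 24 h, so no difference, test or fold is given. At 7 h its saturated control readings were 7.69, 8.12 and 7.84, and the OGD readings were 8.39, 8.39 and 8.22. At 24 h the control readings were 8.36, 8.12 and 8.15, and the OGD readings were 6.82, 8.05 and 7.99. In raw intensity the readings that were not saturated were 40460 in replicate 1 of OGD 7 h, and 8476 and 46650 in replicates 1 and 2 of OGD 24 h, while saturated arrays read 59750 to 61640. A reading at that ceiling is divided by the median of its own array, so its level moves with the brightness of the array.

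**Figure D2:**
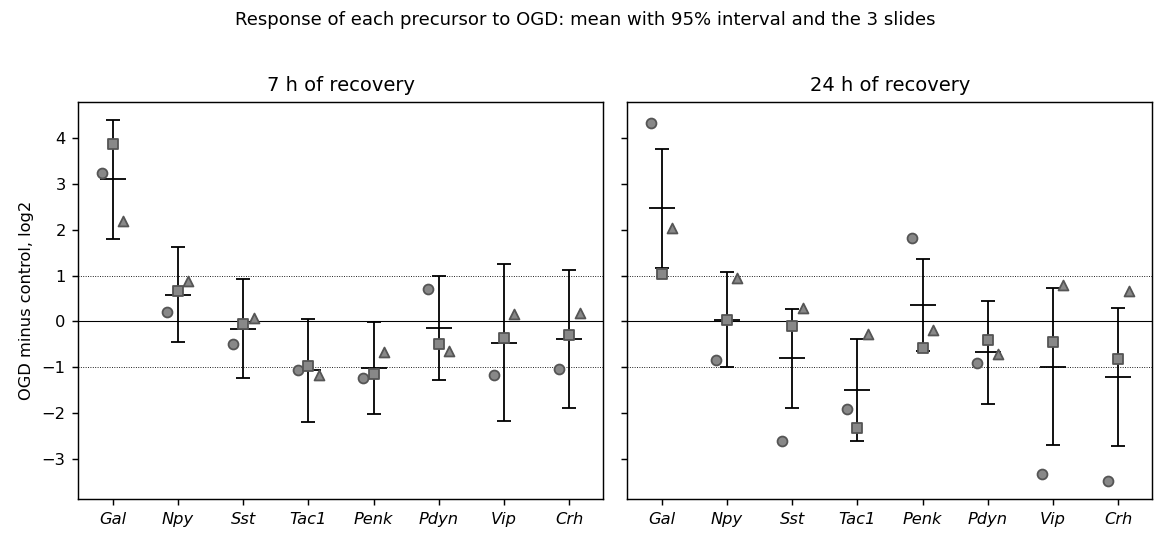
Difference between OGD and control for each precursor but the saturated Cck, on the log2 scale, at 7 h (left) and 24 h (right) of recovery. The dash is the mean and the bar its 95% interval from limma, the circle, square and triangle are the slides of replicates 1, 2 and 3, and dotted lines mark a fold of 2. Gal lies above a fold of 2 on all slides at both times, and the replicate 1 slide at 24 h holds the lowest values of Sst, Vip and Crh.

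To compare Gal with the other peptides directly, the level of each was subtracted from that of Gal within each array. OGD was then compared with control on that difference. The subtraction removes a scaling of the array by a constant factor, and not effects that depend on intensity. Cck was left out, since its saturated control readings measure no response. Gal rose more than each of the other 7 precursors on 6 of 6 slides. Averaged over both times, the excess was 2.47 over Npy, 3.27 over Sst, 4.06 over Tac1, 3.11 over Penk, 3.20 over Pdyn, 3.51 over Vip and 3.58 over Crh. It was smallest against Npy and largest against Tac1. For each of the 7 pairs a two-sided exact permutation test of the arrays within each time gave p = 0.005, the smallest value that its 400 arrangements allow (0.005 after Benjamini-Hochberg adjustment over the 7). The tests share the Gal arrays and are not independent of each other. Gal was listed by the study from these same arrays, so the tests are not independent evidence of its rise. Without both replicate 1 arrays at each time the excess over Npy was 1.66 and that over Vip 2.25.

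**Figure D3:**
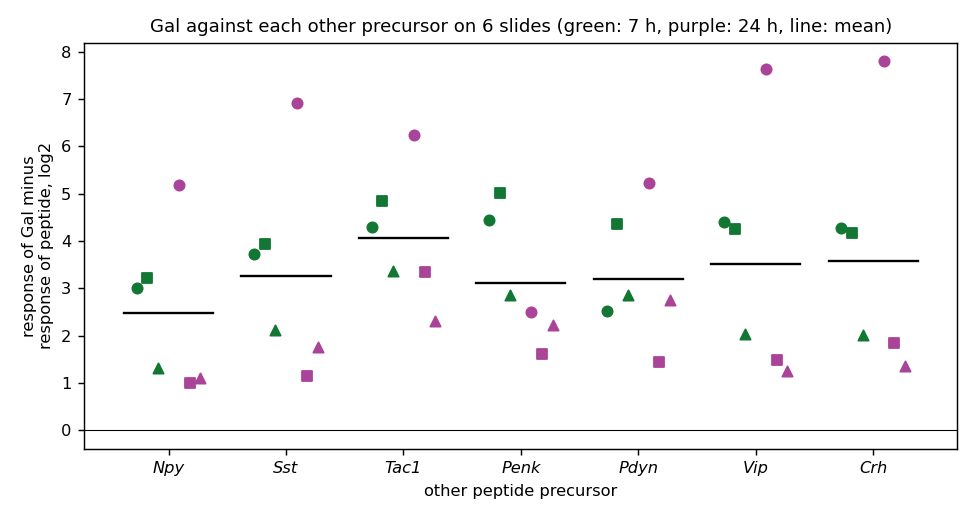
Response of Gal to OGD minus the response of each other precursor but Cck, on the log2 scale, on each of the 6 slides. Green points are 7 h and purple points 24 h, the circle, square and triangle are replicates 1, 2 and 3, and the line is the mean over both times. All points lie above 0, and for all but Penk the highest is the replicate 1 slide at 24 h.

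Over the 12 arrays, the levels of the other precursors had little relation to that of Gal. Pearson's r with Gal was 0.27 for Npy, 0.24 for Pdyn and 0.01 for Penk, and it was -0.25 for Sst, the lowest of the 7 that were not saturated. As the arrays fall into 4 groups, these values describe group differences as much as differences between cultures. Of 12144 genes compared, those with a pattern most like Gal included Adamts7 (r = 0.973), a metalloprotease, Slc1a5 (r = 0.967), a neutral amino acid transporter, and Hlx (r = 0.963), a homeobox gene. Ezr (r = 0.962), which encodes the membrane linker ezrin, was also among them. Their own differences were 1.17 and 1.40 for Adamts7 and 1.35 and 1.02 for Slc1a5, at 7 h and 24 h.

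The galanin family holds 8 genes, all with a probe, and Gal was the only one called at either time. Galr1, an inhibitory galanin receptor, read -2.46, -2.87 and -3.52 in Ctrl 7 h and -1.69, -1.94 and -2.93 in OGD 7 h. It was higher after OGD on all 3 slides at each time, by a mean of 0.76 (limma p of 0.0577) at 7 h and 0.46 (limma p of 0.226) at 24 h. Galr2, which couples mainly to phospholipase C, was also higher on all slides, by 0.29 (limma p of 0.3) and 0.50 (limma p of 0.0862). Galr3 was well above background on only 8 of the 12 arrays, and its differences of -0.67 and 0.08 did not pass the test. Galp, a related peptide that binds galanin receptors, differed by 0.42 and 0.67, and Spx, the spexin precursor, by -0.13 and 0.47. Kiss1r, a receptor of the same family that binds kisspeptin, was lower on all slides by 0.63 (limma p of 0.0167) and 0.56 (limma p of 0.0286), short of a fold of 2. Its ligand gene Kiss1 was well above background on 3 arrays and is given no fold.

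Beyond the 9 members, the wider list of peptide precursors held 63 genes, 58 with a probe, members included. At 7 h 3 were called higher and 4 lower, and at 24 h 5 higher and 5 lower, with medians of -0.08 and 0.07. The list includes Cck and Vgf, saturated on whole groups at both times, whose differences are not measured. Over all named genes the shares were 1.56% higher and 2.07% lower at 7 h, and 2.74% and 2.38% at 24 h. Scaling to the spike-in probe left 1 precursor called at 7 h and 5 at 24 h. Adm, which encodes the vasodilator adrenomedullin, was called higher at both times like Gal. Its level was 5.09, 4.52 and 5.63 in Ctrl 7 h and 7.05, 6.26 and 6.11 in OGD 7 h, and the difference was 1.39 ± 0.40 (SE, n = 3 per group). After 24 h Adm read 4.22, 3.78 and 4.31 in control cultures and 5.93, 4.59 and 4.97 after OGD, a difference of 1.06 ± 0.40. The OGD arrays of Adm lay above the control arrays at both times. Nppa, which encodes atrial natriuretic peptide, was called lower at both times, by 1.18 and 1.13. The others that were called, named here after their values were seen, were Nppb higher and Adcyap1 and Rln3 lower at 7 h, and Ucn2, Trh and Npvf higher and Cort, Nts and Grp lower at 24 h. Npvf had the largest of these rises, 1.99, and the largest falls were those of Grp (-1.62) and Nts (-1.61). Nppb was well above background on only 1 array of each group at 7 h and overlapped between them, and Trh and Nts overlapped at 24 h. Rln3 was well above background on 1 of the 3 OGD 7 h arrays. The count at 24 h rested on replicate 1 of OGD 24 h. Without it 2 of the 10 calls were left, Gal and Npvf (1.97), and Adm differed by 0.68 (limma p of 0.0957) and Nppa by -0.82 (limma p of 0.0252, under a fold of 2). Leaving out replicate 1 of Ctrl 24 h gave 6 calls.

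Among peptide receptor genes, the largest falls were those of Sstr3 and Sstr1 at 7 h and of Sstr1 and Sstr2 at 24 h. The somatostatin receptor genes did not all fall. Sstr4 differed by 0.31 at 7 h and -0.84 at 24 h, Sstr5 by 0.03 and -0.06, and neither was called. Of 27 receptor genes, 26 had a probe, none was called higher at either time, 2 were called lower at 7 h and 6 at 24 h. Over all named genes 2.07% and 2.38% were called lower, and with 1.56% and 2.74% called higher, none of 26 is close to the background. The median differences were -0.39 and -0.09. Sstr1, an inhibitory somatostatin receptor, read 2.87, 2.28 and 2.0 in Ctrl 7 h and 0.43, 0.87 and 1.18 in OGD 7 h, 2.94-fold lower. After 24 h Sstr1 read 2.95, 2.08 and 1.85 in control cultures and -1.23, 0.69 and 1.71 after OGD, 3.74-fold lower. The OGD arrays lay below the controls at both times, with replicate 1 of OGD 24 h lowest. Sstr3, a somatostatin receptor of neuronal cilia, was 3.16-fold lower at 7 h without overlap, and 2.36-fold lower at 24 h, where the groups overlapped. The other 4 called at 24 h, named after their values were seen, were Sstr2, Tacr3, Oprl1 and Vipr1, with differences from -1.89 to -1.24. Sstr2 was lower on all 3 slides, and the others on 2 of 3. Oprl1 was well above background on 2 of the 3 OGD 24 h arrays, where its mean level was -3.98. The 6 calls at 24 h became 1 without replicate 1 of OGD 24 h, that of Sstr1 (difference of -1.09, limma p of 0.0285), where Sstr3 differed by -0.47, and they became 1 without replicate 1 of Ctrl 24 h and 2 without replicate 2 of Ctrl 24 h. Leaving out a 7 h array, which changes only the shared error, gave 3 to 5 calls at 24 h. The 2 calls at 7 h became 1 without replicate 2 of Ctrl 7 h or replicate 1 or 2 of OGD 7 h, and 4 without replicate 3 of OGD 7 h. With the slide as a block, 1 receptor gene was called at 7 h and 2 at 24 h.

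Among the genes that process and store peptides, Pcsk2 was called lower at both times. Of 18 genes of processing and dense-core vesicles, 16 had a probe, 1 was called lower at 7 h and 5 at 24 h (2.07% and 2.38% of all named genes), with medians of -0.38 and -0.78. None was called higher, which is close to the background for so few genes. These counts and medians include Vgf, saturated on 11 of the 12 arrays. They also include Chgb and Scg2, each saturated on all arrays of a group at 7 h. Such differences are not measured. Pcsk2, the neuronal prohormone convertase PC2, read 3.52, 3.71 and 3.25 in Ctrl 7 h and 1.20, 2.38 and 2.31 in OGD 7 h, 2.89-fold lower. After 24 h Pcsk2 read 3.84, 3.83 and 3.57 in control cultures and 0.61, 3.04 and 2.69 after OGD, 3.11-fold lower. Its groups did not overlap at either time. The others at 24 h, named after their values were seen, were the granins Chga and Chgb, the PC2 chaperone Scg5 and the vesicle priming factor Cadps, with differences from -1.12 to -1.01. Chga and Cadps were lower on all 3 slides without overlap of the groups. Chgb and Scg5 were lower on 2 of 3 slides, and their groups overlapped. None of the 5 calls was left without replicate 1 of OGD 24 h, where Pcsk2 differed by -0.88 (limma p of 0.0258, under a fold of 2), 1 was left without replicate 1 of Ctrl 24 h and 3 without replicate 2 of Ctrl 24 h. At 7 h Pcsk2 was no longer called without replicate 2 of Ctrl 7 h or replicate 1 of OGD 7 h. The count was 2 with the slide as a block, 2 when arrays were scaled to their 75th percentile and 3 after quantile normalization. Of 11 peptidases that degrade peptides, Ece2 and Dpp4 were called lower at 7 h, and none was called at 24 h (2.07% and 2.38% of all named genes were called lower). The medians of that list were -0.05 and -0.04. Ece1 went the other way at 7 h, by 0.85 (limma p of 0.00356), short of a fold of 2. Dpp4 was not well above background on any OGD 7 h array, so its fall is only bounded, at least 1.5-fold (limma adjusted p of 0.302). The count of 2 became 1 under the 75th percentile or quantile normalization and 0 under the spike-in probe.

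**Figure D4:**
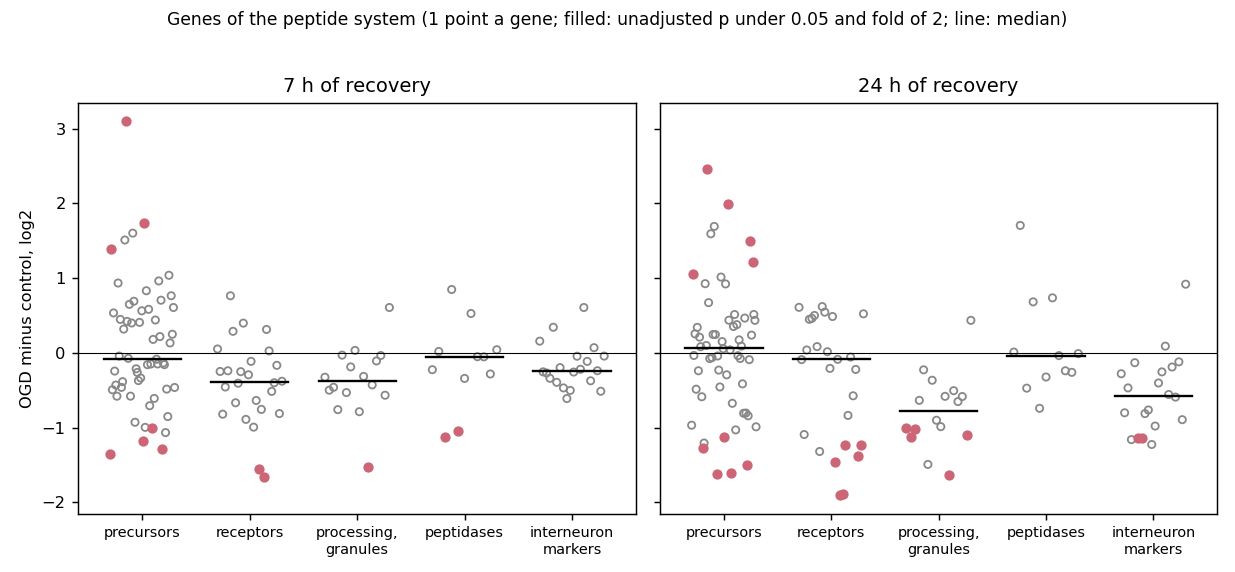
Difference between OGD and control, on the log2 scale, for the genes of 5 lists with a probe, at 7 h (left) and 24 h (right). Each point is a gene, filled points passed an unadjusted limma p of 0.05 and a fold of 2, and lines are medians. Genes saturated on whole groups, such as Cck and Vgf, are plotted though their differences are not measured. Gal is the highest precursor at both times, and no receptor or processing gene is called higher. The 24 h panel includes replicate 1 of OGD 24 h, without which 1 receptor gene and no processing gene was called.

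Cytokines that signal through gp130, such as LIF, are known inducers of galanin in injured neurons, and 15 of 16 genes of that pathway had a probe. Only Il6 was called, higher at 7 h, and none was called at 24 h. Over all named genes 1.56% were called higher at 7 h and 2.74% at 24 h, so these counts among 15 genes are close to the background. A part of these cytokines in the rise of Gal was not tested. At 7 h no control array read Il6 well above background and all 3 OGD arrays did, at least 3.29-fold higher (limma adjusted p of 0.24).

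Several neuronal markers were lower after OGD, while most glial markers were not called. The part of the cell types in these results was not tested. In these cultures, fewer cells of a type and less RNA per cell cannot be told apart. All 16 pan-neuronal markers were well above background on the 12 arrays, and their mean level ran from 4.53 to 4.93 in Ctrl 24 h and from 3.58 to 4.43 in OGD 24 h, without overlap. For 20 interneuron markers with a probe, the mean level ran from 1.75 to 2.31 in Ctrl 24 h and from 0.84 to 1.80 in OGD 24 h. The lowest was replicate 1 of OGD 24 h, and the groups overlapped. The GABA-synthesizing enzymes Gad1 and Gad2 were the 2 called lower in that list at 24 h, by 1.15 and 1.14, and none was called at 7 h. For each marker list, the shares over all named genes were 1.56% higher and 2.07% lower at 7 h, and 2.74% and 2.38% at 24 h. Neither Gad gene was called without replicate 1 of OGD 24 h or of Ctrl 24 h, and 6 or 7 interneuron markers were called without replicate 3 of Ctrl 24 h or replicate 2 or 3 of OGD 24 h. Of 11 pyramidal neuron markers with a probe, the glutamate transporters Slc17a7 (-1.18 and -1.53) and Slc17a6 (-1.14 and -1.16) were called lower at both times, and Neurod2 and Neurod6 at 24 h. The mean level of that list ran from 1.39 to 1.57 in Ctrl 7 h and from 1.06 to 1.36 in OGD 7 h, and from 1.75 to 2.05 in Ctrl 24 h and 0.24 to 1.44 in OGD 24 h, without overlap. The pan-neuronal Eno2 was called lower at both times (-1.10 and -1.06), and Syn1 and Syt1 at 24 h. Without replicate 1 of OGD 24 h, Slc17a7 (-1.02, limma p of 0.0187) and Eno2 (-1.05, limma p of 0.00718) were still called, as was the pericyte marker Pdgfrb, higher at 24 h (1.36, limma p of 0.0128). Pdgfrb was the 1 gene called at 24 h of 14 vascular cell and fibroblast markers with a probe (2.74% of all named genes were called higher). The median of that list at 24 h was 0.23, and 6 of the 14 differences were below 0. At 7 h 2 of the list, Cldn5 and Rgs5, were called lower, and neither was well above background on any OGD 7 h array. Of 11 astrocyte markers 10 were well above background on all arrays, so the cultures also held glial RNA, and none was called at either time. Among microglia markers 1 of 12, Cx3cr1, was called higher at 7 h, and the mean of that list overlapped between the groups. Of 12 oligodendrocyte lineage markers Cspg4 alone was called, lower at 7 h (-1.075) with overlap of the groups. The medians of that list were -0.15 and 0.073.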

How the data were processed

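Total RNA of 12 samples was labelled with Cy3, 1 array each. The paper describes its biological replicates as RNA from 3 independent cultures, and there were 3 arrays per group. The authors read the slides with Agilent Feature Extraction 10.5.1.1, and the deposited intensity of each spot is its background-subtracted processed signal, not normalized between arrays. A table of log2 values, deposited too, holds the same signals after the authors' median centring (1 constant per array) and served as an alternative. Depth is not defined for arrays, and their number limits the precision.

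From the intensities, outlier spots were dropped, values were put on the log2 scale and averaged over the spots of each probe, and the array median of the 30367 non-control probes was subtracted, as the study's methods did. Probes were designed on rn4 and followed by name through RefSeq accessions (17996 named). Groups came from the labels, and replicates are separate arrays. The paper does not state whether arrays of equal replicate number came from the same culture. The 4 groups were fitted with limma 3.58.1 in R 4.3.3, with two-sided p-values adjusted by Benjamini-Hochberg over all probes. Scripts were tested on simulated data. The members and lists were chosen with earlier results of these data known. Genes named in a list are those called at both times in the same direction, up to 4, and the galanin receptors. The 5 genes most correlated with Gal were taken, of which 1 is not reported here. Alternatives covered scaling, background correction, filters, the test, the probe of a gene, slide as a block and each array left out. The background correction (normexp) used the median spot signal in place of the planned mean signal. Cck, saturated on whole groups, was left out of the tests on members.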

Additional observations from a re-analysis of the deposited data

How the results depend on the processing

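The rise of Gal kept its direction under all 24 alternatives and stayed past the threshold at 7 h in each. With 1 array left out at a time it ran from 2.77 to 3.63 at 7 h and from 1.85 to 3.01 at 24 h. Scaling to a spike-in probe, which put the median difference of all named genes at -0.91 and -1.05, left Gal at 1.44 at 24 h, short of the test (limma p of 0.199). The same scaling turned Npy to -0.22 and -0.99, and Penk at 24 h to -0.67. Normexp background correction turned Npy at 24 h to -0.40 and Penk at 24 h to -0.085. Without both replicate 1 arrays at each time, chosen after seeing the data, Sst read 0.012 and 0.090, Vip 0.17 at 24 h and Penk -0.38 at 24 h. In that setting the excess of Gal was 1.66 over Npy, 2.24 over Sst, 3.47 over Tac1, 2.93 over Penk, 2.85 over Pdyn, 2.25 over Vip and 2.35 over Crh, with an exact permutation p of 0.0556, the smallest that 2 arrays against 2 allow. The 7 h call of Penk was lost in 13 of the 24 and the 24 h call of Tac1 in 4, and Tac1 at 7 h passed the test in 7.

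Probes called numbered 1136 at 7 h and 1721 at 24 h, 55.5% and 65.4% of them higher. Scaling to the spike-in probe gave 358 and 537 (20.7% and 3.72% higher), normexp 2313 and 798 (70.9% and 24.3%), and the 75th percentile 67% and 74.9% higher. The methods' t-test called 634 at 24 h, and leaving out both replicate 1 arrays 543. With 1 array left out the counts ran from 664 to 1750 and from 814 to 3045. Members whose direction turned with some array left out were Sst (from -0.44 to 0.068) and Pdyn (from -0.53 to 0.091) at 7 h, and Npy (from -0.44 to 0.67), Penk (from -0.045 to 0.74) and Vip (from -1.89 to 0.14) at 24 h. The difference between the responses of Gal ran from -1.26 to -0.09.

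Same-numbered arrays did not deviate together (correlations of deviations from -0.05 to 0.11 at 7 h and from -0.01 to 0.17 at 24 h). With the slide as a replicate block, Gal kept its differences of 3.10 (limma p of 0.00182) and 2.47 (limma p of 0.00594), and 1158 and 1590 probes were called. Cck, saturated on all control arrays, was given no value under any alternative.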
